A study of Mus musculus with 38 samples.

Results

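The Serpina cluster on mouse chromosome 12 was described across 6 histone marks in livers of male and female mice. Its members were all peaks and islands of the deposited lists that overlapped mm9 chr12:104800000-105900000 by at least 1 bp, 349 of 384017 in all. The window was set for 9 genes, Serpina10, Serpina6, Serpina1a, Serpina1b, Serpina1c, Serpina1d, Serpina1e, Serpina3k and Serpina3n.

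Livers came from 8-week-old males and females of the outbred CD-1 stock, and no animal carried a labelled allele or treatment. Chromatin immunoprecipitation followed by sequencing covered H3K4me1 (enhancers and promoter flanks), H3K4me3 (promoters), H3K27ac (active promoters and enhancers), H3K36me3 (transcribed gene bodies), and H3K27me3 and H3K9me3 (silent chromatin). The 34 histone libraries were deposited as 12 lists, 1 per mark and sex, with the same file for each of the 2 to 4 libraries of a list. Every value below is therefore a pooled value with no spread between animals, and no test between animals could be made. Whole liver was used, so fewer cells of a type and less mark per cell cannot be told apart.

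Serpins of clade A are mostly secreted inhibitors of serine proteases, made in hepatocytes and released into plasma. The Serpina1 genes encode alpha-1-antitrypsin, which inhibits neutrophil elastase, and mice carry several tandem copies where humans carry a single gene. The Serpina3 genes are a mouse expansion of the gene for human alpha-1-antichymotrypsin, and liver sex differences in mice depend largely on the pattern of growth hormone release.

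The Serpina1 copies are so alike that reads can fail to map to a single place, and their promoters are shown for that reason. RefSeq (build GRCm38.p6, chromosome 12, minus strand) gave a promoter for each of the 5 copies, and 116 bases of each follow, 5′ to 3′. Capitals mark GTTAAT, letters shared with sites bound by HNF1, a liver transcription factor.
Serpina1a: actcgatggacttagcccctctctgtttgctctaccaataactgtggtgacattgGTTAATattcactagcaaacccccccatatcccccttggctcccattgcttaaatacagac
Serpina1b: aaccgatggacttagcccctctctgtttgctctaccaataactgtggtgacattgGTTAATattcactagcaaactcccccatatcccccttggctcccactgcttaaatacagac
Serpina1c: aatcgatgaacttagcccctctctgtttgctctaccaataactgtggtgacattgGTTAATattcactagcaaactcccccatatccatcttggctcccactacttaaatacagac
Serpina1d: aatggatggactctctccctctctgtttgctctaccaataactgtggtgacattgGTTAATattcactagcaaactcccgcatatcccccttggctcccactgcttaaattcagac
Serpina1e: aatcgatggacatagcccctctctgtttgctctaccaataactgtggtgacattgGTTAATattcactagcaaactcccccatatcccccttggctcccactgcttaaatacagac
GTTAAT, searched on both strands of 300-base promoters, occurred in 5 of the 6 members with a promoter sequence and in 7.20% of 27025 genes. Those 5 are the near-identical Serpina1 copies, so they do not count as independent occurrences. Among all Serpina promoters of the cluster, 6 of 18 held the letters, the other one being that of Serpina3c, which is not a member. Of the 266 words of 35 bases in each promoter, the length of the IgG reads, 171 in Serpina1e, 137 in Serpina1b, 110 in Serpina1d, 75 in Serpina1c and 62 in Serpina1a also occurred in the promoter of another gene. No such word of Serpina11, the next gene to the right, did so.

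Gene starts were placed on mm9 by matching these RefSeq promoters to sequenced reads of the IgG control, 1 male library, without converting coordinates between builds. Of 26 neighbouring genes with a promoter sequence, 9 were placed by exact reads and 3 more by a looser match, and Serpina3n was the single member among them, through 1 read with 1 mismatch. None of the 5 Serpina1 starts could be placed. Peaks in the Serpina1 region are therefore given between the starts of Serpina1f at 104933740 and Serpina11 at 105228168, which enclose all 5 copies in RefSeq order. The placed Serpina3 starts ran from 105366207 (Serpina3b) to 105644919 (Serpina3n), and RefSeq order lists no Serpina gene to the right of Serpina3n, which is on the plus strand.

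Control reads were scarce over the Serpina1 copies. The IgG library had 1.04 reads per kb in chr12:104950000-105199999, a density of 0.233 relative to the autosomal mean of 4.48 reads per kb. The same library reached 1.17 in chr12:104800000-104949999 to its left, 0.940 in chr12:105200000-105499999, which holds the Serpina11, Serpina3b and Serpina3c starts, and 0.813 in chr12:105500000-105900000, which holds the Serpina3i, Serpina3j and Serpina3n starts. Peak heights and fold enrichments inside the Serpina1 region rest on this thin background.

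**Figure D1:**
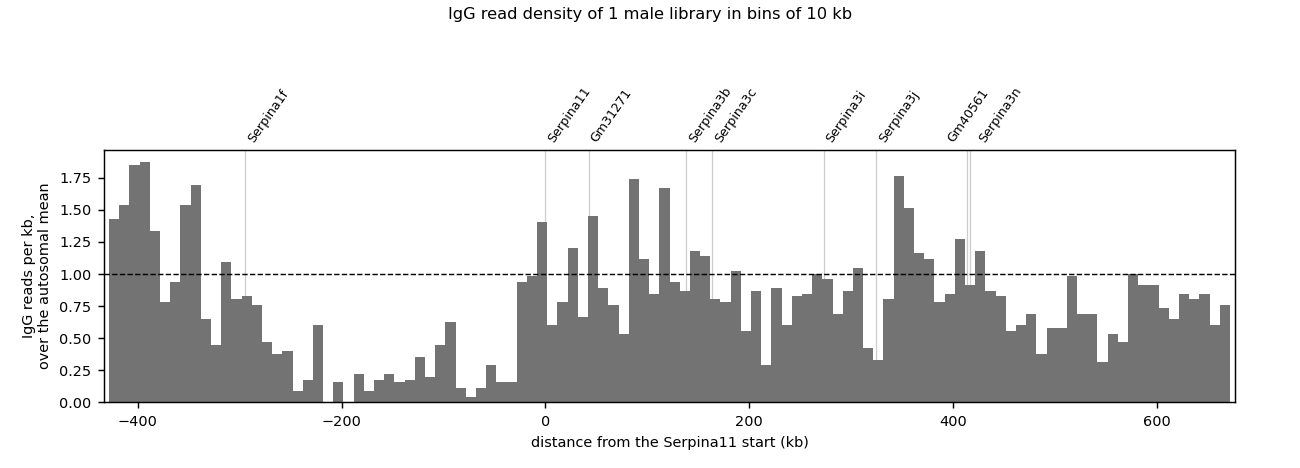
Reads of 1 male IgG library per kb in bins of 10 kb, divided by the autosomal mean (dashed line at 1), against distance from the Serpina11 start in kb, with the placed gene starts as grey lines. Density is low over the stretch between Serpina1f and Serpina11, where the stretch assigned to the Serpina1 genes had a density of 0.233.

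The tissue label was checked at marker genes whose starts could be placed. All 4 placed hepatocyte markers, of 5 listed, had H3K4me3 in both lists, with 165 to 336 tags per kb of peak in males and 93.8 to 350.2 in females, and none had an H3K27me3 island. Of 6 placed markers of other cell types and tissues, of 15 listed, 5 lay in H3K27me3 islands in both sexes, and 3 in males and 2 in females had H3K4me3, at 40.5 to 60.5 and 38.0 to 40.7 tags per kb. The 2 placed macrophage markers differed. Clec4f, which marks Kupffer cells, had no H3K4me3, H3K4me1 or H3K27ac peak in either sex. Cd68, found in macrophages generally, had no H3K4me3 and no H3K27me3 in either sex, but H3K27ac at 171 tags per kb in males alone, H3K4me1 at 128 in females alone, and H3K36me3 at 52.4 reads per kb in males and 36.3 in females.

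The cluster was rich in active marks and divided into blocks. H3K27ac covered 18.2% of the window in males and 16.5% in females, against 5.15% and 4.56% of the autosomes, and this was more than in 96.8% and 96.7% of 2186 autosomal tiles of the same width. H3K4me1 covered 13.7% in males and 17.8% in females, against 6.01% and 7.07% of the autosomes. H3K4me3 covered 3.67% and 4.03%, against 1.35% and 1.35%. H3K36me3 (9.36% in males and 9.85% in females), H3K27me3 (19.5% and 20.4%) and H3K9me3 (8.55% and 8.36%) covered shares in the middle of the range of tiles, between the 46.3 and the 71.6 percentile.

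**Figure D2:**
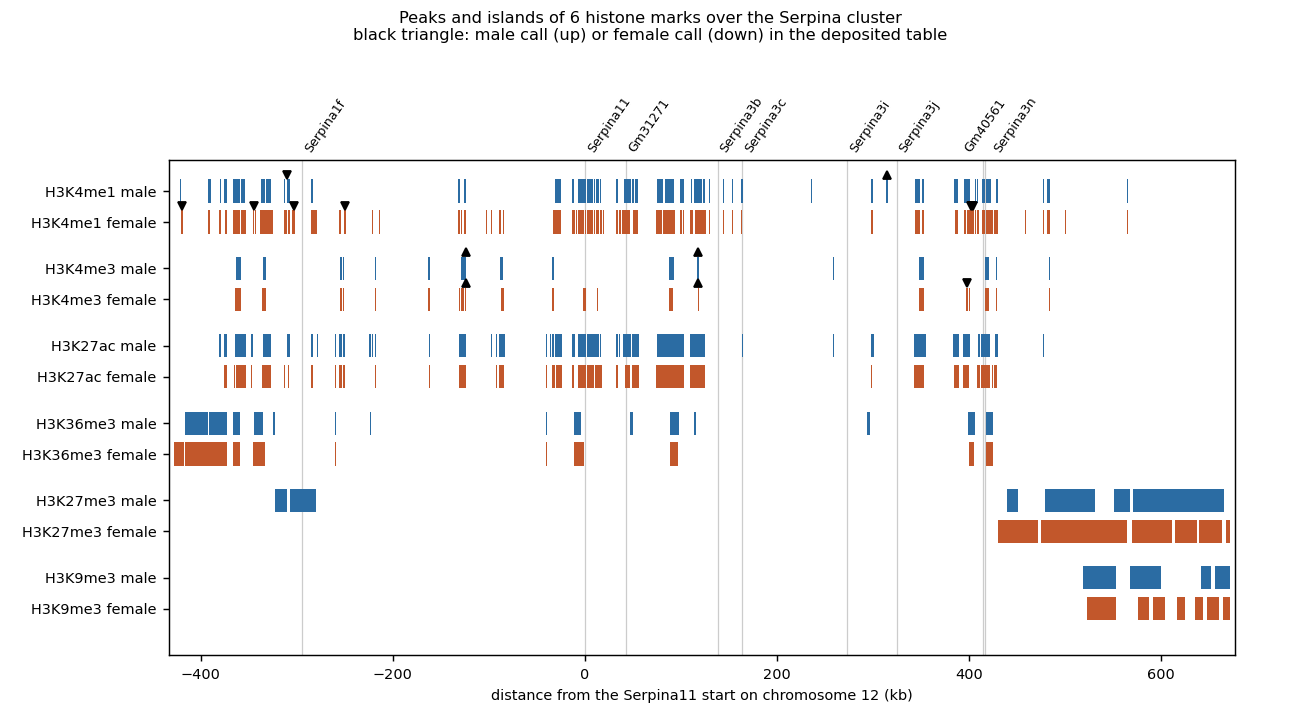
Peaks and islands of the 12 lists (male above female for each mark) against distance from the Serpina11 start in kb, with placed gene starts as grey lines. Black triangles mark the 14 peaks called male (up) or female (down) in the authors' deposited table, and H3K27me3 and H3K9me3 fill the right end of the window beyond Serpina3n.

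The blocks are plain in the coverage between placed starts. H3K27ac covered 55.9% of the 138 kb between Serpina11 and Serpina3b in males and 53.7% in females, and H3K4me1 42.8% and 47.8%. RefSeq order puts Serpina9, Serpina12, Gm31271, Serpina4-ps1, Serpina5 and Serpina3a there. The next 187 kb, from Serpina3b to Serpina3j, was nearly bare, with 2.20% and 0.573% under H3K27ac, 3.71% and 2.11% under H3K4me1, and no H3K27me3 or H3K9me3 island in either list. From Serpina3j to Serpina3n, a stretch that holds Serpina3k, H3K27ac again covered 34.2% in males and 31.8% in females.

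**Figure D3:**
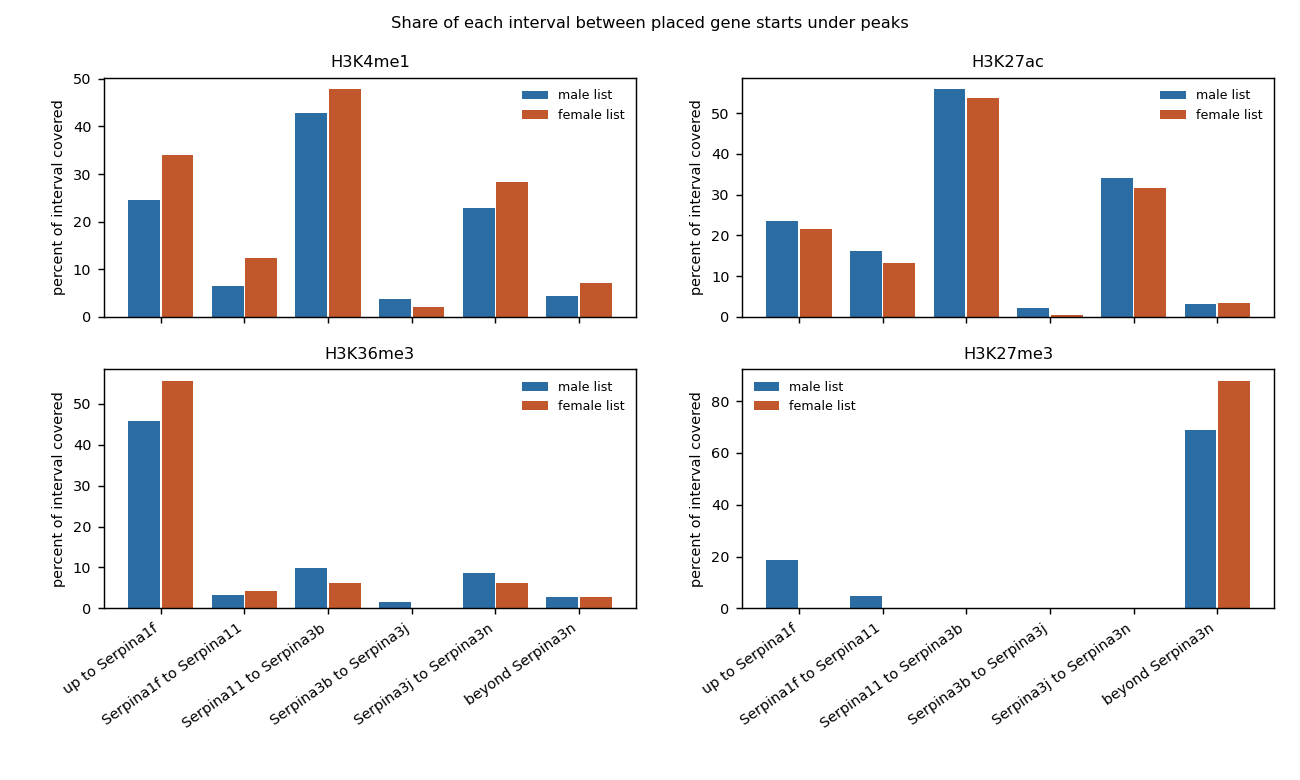
Percent of each interval between placed gene starts that lay under H3K4me1, H3K27ac, H3K36me3 and H3K27me3, in the male list (left bar) and the female list (right bar). H3K27ac peaks at 55.9% in males and 53.7% in females between Serpina11 and Serpina3b, and H3K27me3 at 68.7% and 87.8% from the Serpina3n start to the right edge.

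At the placed starts themselves the marks differed sharply between neighbouring genes. Serpina3n, an inhibitor of granzyme B, was the placed start with the most lists, 6 of 12 having a peak within 500 bp. Its H3K4me3 was 193 tags per kb of peak in males and 256 in females, and its H3K27ac 267 and 197. Serpina11 had H3K27ac at 297 and 215 tags per kb and an H3K4me3 peak in the female list alone. The male H3K27ac list held more tags inside peaks genome-wide, 19253391 against 12837285 in the female list. In its male list the authors' deposited table gave H3K27ac log2 ratios of 0.00 at Serpina3n and -0.02 at Serpina11, near parity. Serpina3b, Serpina3i and Serpina3j had no peak of any mark in either sex. Serpina3c had H3K4me1 at 85.3 tags per kb in males and 95.5 in females, H3K27ac at 51.9 in males alone, and no H3K4me3.

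Serpina3n and Serpina3c make a close pair with unlike marks, so the bases before their starts are set side by side. The sequences are from RefSeq (GRCm38.p6, chromosome 12, plus strand for Serpina3n and minus strand for Serpina3c), 5′ to 3′, and capitals mark the 18 of 247 aligned bases that differ.
Serpina3n: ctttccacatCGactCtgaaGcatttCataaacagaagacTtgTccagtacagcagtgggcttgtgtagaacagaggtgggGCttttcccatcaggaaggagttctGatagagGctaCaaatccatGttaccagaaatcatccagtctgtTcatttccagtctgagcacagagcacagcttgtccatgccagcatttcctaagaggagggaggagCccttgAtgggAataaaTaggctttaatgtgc
Serpina3c: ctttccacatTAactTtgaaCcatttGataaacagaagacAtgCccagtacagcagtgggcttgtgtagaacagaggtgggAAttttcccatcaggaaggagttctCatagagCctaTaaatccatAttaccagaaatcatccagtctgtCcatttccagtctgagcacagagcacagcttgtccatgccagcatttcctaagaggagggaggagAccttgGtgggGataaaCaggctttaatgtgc
The bases shown were 92.7% alike. With the bases after the starts included, the promoters were 83.8% alike over 297 bases. Of the 266 words of 35 bases in each promoter, 33 occurred in the other. The remaining words were compared with promoter sequences alone, and Serpina3k and Serpina3m had no promoter sequence. Whether those words occur once in the genome was not tested.

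H3K4me3 fell into 27 merged sites, of which 20 had a peak in both lists, 2 in the male list alone and 5 in the female list alone. Most were weak for their lists, with a median rank at the 74.6 percentile of the male list and the 71.2 percentile of the female list, 100 being the weakest by the authors' own score. Of the 22 male-list and 25 female-list peaks, 12 and 13 lay between Serpina1f and Serpina11. IgG density there was 0.339 of the autosomal mean, and its part in these ranks was not tested. The strong sites stood left of Serpina1f, once among the Serpina1 genes, and from Serpina3j to Serpina3n.

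**Figure D4:**
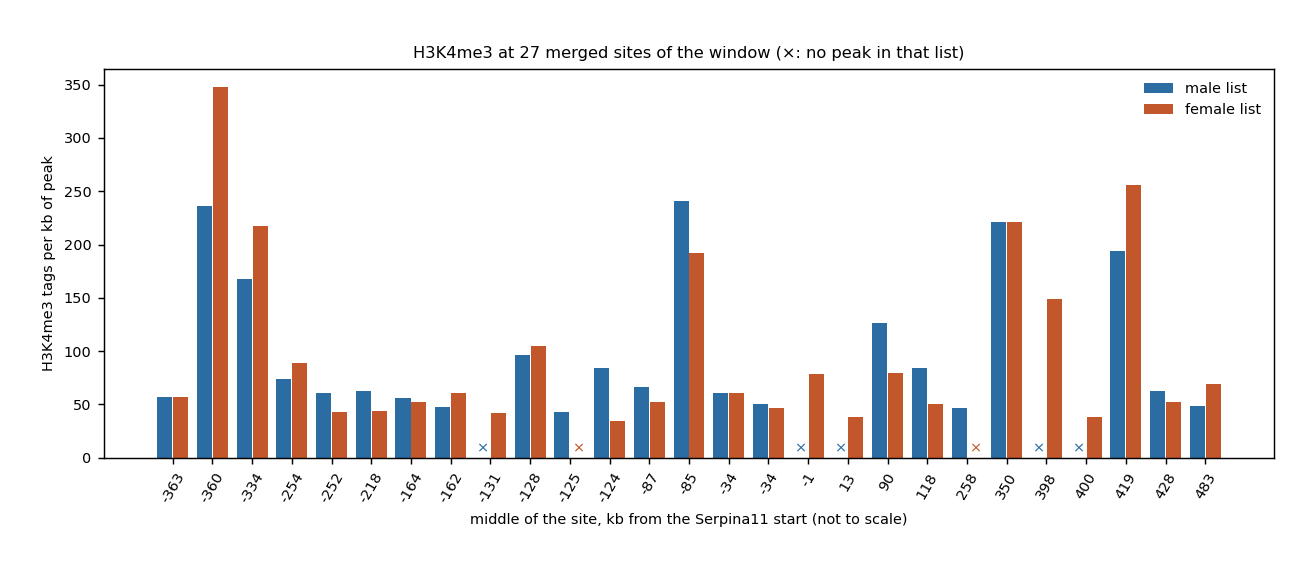
H3K4me3 tags per kb of peak at 27 merged sites in order along the window, male list left and female list right, with a cross where a list had no peak. The second site from the left had 236 tags per kb in males and 348 in females, and the site called female, left of Serpina3n, had 149 in females and no male peak.

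In the stretch that holds Serpina10 and Serpina6, left of the Serpina1f start, 2 of the 3 H3K4me3 sites leaned towards females without a call. Serpina10 encodes an inhibitor of coagulation factor Xa that acts with protein Z, and Serpina6 encodes the corticosteroid-binding globulin of plasma. The site at chr12:104866722-104870012 had 741 tags in the male peak and 1120 in the female peak, with fold enrichments of 31.9 and 89.1. Folds ran higher in the female H3K4me3 list as a whole, where the 100 highest were at least 95.73, against 47.65 in the male list. The gap between the folds at this site is therefore no measure of a sex difference. The site at chr12:104892323-104895719 had 504 and 703 tags. In the authors' deposited table the log2 ratio of male over female was -0.60 (p = 2.17e-18) at the first and -0.47 (p = 4.74e-08) at the other in the male list. Both ratios fell short of the log2 of 1 in size that the deposited calls require together with p below 0.001. The remaining site, chr12:104863531-104866573, had 115 tags in males and 174 in females. Its ratio in the male list of the authors' deposited table was -0.15 (p = 0.344).

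The same stretch carried long H3K27ac peaks and most of the H3K36me3 of the window. The H3K27ac peak at chr12:104863262-104875635 in males held 3300 tags, and its partner at chr12:104864311-104875642 in females held 2050, with log2 ratios of 0.14 and 0.15 in the authors' deposited table. H3K36me3 covered 45.8% of the stretch in males and 55.6% in females. The female list joined chr12:104811200-104855799 into 1 island of 2116 reads, where the male list had 2 islands of 988 and 1162 reads. RefSeq order also puts Ppp4r4, a regulatory subunit of protein phosphatase 4, at this end, with its start at 104770776 left of the window.

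Around the Serpina1f start, males had H3K27me3 islands and females had none. The male islands lay at chr12:104905600-104917599, with 478 reads against 104 control reads, and at chr12:104920800-104947999, with 845 reads against 211. Their log2 ratios in the authors' deposited table were 0.81 (p = 1.33e-14) and 0.78 (p = 1.30e-23), below the size of a call. These are 2 of 6 male H3K27me3 islands in the window, against 0 of 6 female islands without a partner, and over the whole lists 19.5% of male and 21.2% of female islands had none. No H3K27me3 island of the window was called, of 6 male and 6 female ones, where the authors' deposited table called 0.808% and 0.0615% of all islands.

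H3K4me1, and in places H3K27ac, leaned the other way over these islands. The H3K4me1 peak at chr12:104924533-104925922, inside the second island, had 157 tags in females and no male peak, and was called female with a log2 ratio of -1.63 (p = 3.21e-14) in the authors' deposited table. The male peak at chr12:104917465-104918024, at the edge of the first, had 29 tags and was also called female in the authors' deposited table, just past a log2 ratio of -1. The overlapping female-list peak at chr12:104917183-104918326, with 127 tags, was uncalled at -0.82 in the authors' deposited table. H3K27ac there had a peak in males alone, with 39 tags and a deposited ratio of 0.03. Its next site to the right, chr12:104918797-104920860, was at parity, at -0.01 in the male list and 0.02 in the female list. Further left, an H3K27ac peak in females alone, chr12:104915083-104915765 with 30 tags, had an uncalled ratio of -0.97. To the left of both islands, female H3K4me1 peaks at chr12:104807963-104808784 (53 tags) and chr12:104882443-104883765 (132 tags) had no male partner and were called female, at -1.19 and -1.12 in the authors' deposited table. By score they were weak, at the 77.5 and 81.7 percentiles of the female list. At chr12:104942559-104945765 the female H3K4me1 peak had 453 tags, and the male peak within it 144. Their ratios in the authors' deposited table were -0.85 (female list) and -0.53 (male list), and the H3K27ac peaks over that place, with 140 tags in males and 178 in females, had -0.80 and -0.77. All 4 of these last peaks were left without a call. Male H3K4me1 peaks covered 6.56% of the second island, and female ones 25.9%. The Serpina1f start lies in this island, and it had no other peak within 500 bp.

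Between Serpina1f and Serpina11, where the 5 Serpina1 copies lie, H3K4me3 was present in both sexes and mostly alike. The male list had 12 peaks and the female list 13, with a median log2 ratio of 0.18 in the male list and -0.01 in the female list in the authors' deposited table. The strongest, at chr12:105141906-105143628, had 324 tags in males and 331 in females, with fold enrichments of 39.9 and 53.4 and log2 ratios of 0.03 and -0.01 in the authors' deposited table. The sites at chr12:105098749-105101939 (308 tags in males and 333 in females) and chr12:104972733-104975249 (185 and 174) were also near parity, at -0.14 and 0.05 in the male list of the authors' deposited table.

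A single H3K4me3 site between those starts was called, in the male direction. It lay at chr12:105103413-105104102, with 57 tags in males and 21 in females, and the authors' deposited table gave it log2 ratios of 1.40 (p = 3.57e-05) in the male list and 1.44 (p = 8.71e-05) in the female list. The site was weak in both lists, at the 73.0 percentile of the male list and the 99.0 percentile of the female list by score. Over it, in the authors' deposited table, H3K27ac was near parity at 0.09 in the male list and 0.14 in the female list, and H3K4me1 was below 0 at -0.50 and -0.24. A neighbouring male-list peak at chr12:105102459-105103038, with 25 tags, had no female partner. The authors' deposited table left it uncalled, with a ratio above 1 and p = 0.0245.

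H3K4me1 was sparse over the Serpina1 copies in males and less so in females. The male list had 8 peaks covering 6.48% of this interval and the female list 24 peaks covering 12.3%, of which 18 had no male partner. Of the 24 female-list peaks, 22 had a ratio below 0 in the authors' deposited table, against 57.9% of the whole female list, and 5 of the 8 male-list peaks, against 37.1%. Peaks found in females alone tend to have ratios below 0, and 28.4% of the whole female list had no male partner. The count of 22 is therefore not separate evidence from the count of 18. The female list also held more tags inside peaks genome-wide, 20459697 against 12562838 in the male list, and its part in the extra peaks was not tested. One of the 24, chr12:104977639-104977980, with 32 tags, was called female at -1.64 (p = 6.97e-04) in the authors' deposited table.

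H3K27ac among the Serpina1 copies was at parity on balance. The male list had 25 peaks covering 16.1% of the interval and the female list 21 covering 13.3%, with median log2 ratios of -0.02 and 0.00 in the authors' deposited table. At the right edge the Serpina11 start lay in an H3K4me3 peak of the female list alone, chr12:105225977-105228699, with 214 tags, a fold of 4.54 and a ratio of 0.01 in the authors' deposited table.

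A pair of narrow places between Serpina1f and Serpina11 had extreme enrichments in both sexes. They are singled out here after their values were seen. H3K27ac at chr12:104968119-104969203 had 306 tags in males and 254 in females, and its fold enrichments of 74 and 68.8 were reached by 1 other peak at most in each whole list of 40903 male and 38306 female peaks. An H3K36me3 island over it, chr12:104967400-104969199, had 188 reads in males and 164 in females against 8 control reads, with 3 IgG reads in the library used here. The H3K36me3 island at chr12:105187400-105187599 had 49 reads in males and 45 in females over 0.2 kb with 0 control reads, and its deposited folds of 124 and 122 were the highest of either list. With no control read behind them these folds have no fixed size, and the ratio between the sexes was -0.06 in the authors' deposited table. IgG density over the whole interval was 0.339 of the autosomal mean, and its part in these enrichments was not tested.

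Between Serpina11 and Serpina3b lay the longest H3K27ac peaks of the cluster. The male peak at chr12:105302693-105330901 held 6450 tags over 28.2 kb, and 68 of the 40903 male peaks, itself included, were as wide or wider. Its female partner, chr12:105303907-105325416, held 3800 tags over 21.5 kb. Their log2 ratios in the authors' deposited table were 0.02 in the male list and 0.01 in the female list. The strongest male H3K4me1 peak of the window by score, chr12:105239351-105242598, also lay in this interval, with 481 tags in males and 446 in its female partner. Its log2 ratio was 0.71 (p = 2.46e-16) in the male list and 0.69 in the female list of the authors' deposited table, below the size of a call.

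Both H3K4me3 sites of this interval that had a peak in each list were higher in males. The site at chr12:105315839-105320925 had 641 tags in males and 288 in females, with log2 ratios of 0.90 (p = 5.13e-21) and 0.89 in the authors' deposited table, short of a call. The site at chr12:105345224-105346867 had 138 tags in males and 59 in females, and it was called male at 1.08 (p = 2.30e-07) and 1.04 (p = 4.27e-06) in the authors' deposited table. Its fold enrichment was 5.15 in males and 3.84 in females. Over the called site, H3K27ac had a ratio of 0.02 in both lists and H3K4me1 0.06 in the male list and 0.04 in the female list of the authors' deposited table. H3K36me3 had 3 islands in males and 1 in females in this interval, all with ratios above 0, of 0.36 to 0.83 in the male list and 0.35 in the female list of the authors' deposited table, and none was called.

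From Serpina3b to Serpina3j the few peaks all had log2 ratios above 0, some of them barely. The male list had 6 H3K4me1 peaks and the female list 4, with median log2 ratios of 0.72 and 0.39 and no value below 0 in the authors' deposited table. The lowest values were 0.02 in the male list and 0.03 in the female list, and the whole male H3K4me1 list had a median of 0.16. The peak at chr12:105542070-105542758, left of Serpina3j, had 34 tags in males and no female peak, and it was called male at 1.66 (p = 7.17e-06) in the authors' deposited table. It was the largest male ratio of any mark in the window and overlapped no peak of another mark. The 3 male and 1 female H3K27ac peaks and the single male peaks of H3K4me3 and H3K36me3 in this interval also had ratios above 0, without a call, in the authors' deposited table. The lowest of these, for a male H3K27ac peak, was 0.05. Sites with a peak in both lists are counted in each list. No female partner was found for 2 of the 3 male H3K27ac peaks or for the single H3K4me3 and H3K36me3 peaks. The same held for 2 of the 6 male H3K4me1 peaks. Peaks found in males alone tend to have ratios above 0, so the shared sign of the marks is partly set by detection.

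The stretch from Serpina3j to Serpina3n, which holds Serpina3k, Serpina3l-ps and Serpina3m in RefSeq order, held the largest female ratio of the cluster. The H3K4me3 peak at chr12:105625175-105627364 had 326 tags and a fold enrichment of 27.1 in females and no peak in males, and the authors' deposited table called it female at -1.72 (p = 4.49e-29). By score it stood at the 27.8 percentile of its list, where the 6 other H3K4me3 peaks of the window without a partner stood at the 79.9 percentile or weaker. A weaker female-list peak followed at chr12:105627567-105628469, with 34 tags and an uncalled ratio of -0.58 in the authors' deposited table.

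Other marks mostly leaned the same way over and beside that peak. The 3 H3K4me1 peaks of the female list at chr12:105629536-105630322, chr12:105630728-105631648 and chr12:105631829-105633449 had 57, 53 and 106 tags and no male partner, and they were called female at -1.33, -1.25 and -1.37 in the authors' deposited table. These peaks were weak for their list, at the 70.3, 79.2 and 90.8 percentiles by score. The last had a fold of 2.69 and held 21 IgG reads. H3K4me1 over the H3K4me3 peak itself was uncalled. The male list had 2 peaks there, chr12:105625284-105627702 with 220 tags and chr12:105622623-105625192, at its left edge, with 209, and the female list 1 with 518 tags. The authors' deposited table gave them ratios of -0.21 and 0.15 in the male list and -0.32 in the female list. H3K27ac there had 914 tags in males and 630 in females, in peaks of 5685 and 3913 bp, with log2 ratios of -0.37 and -0.50 in the authors' deposited table. H3K36me3 to its right, chr12:105626600-105634599 in males and chr12:105627800-105633599 in females, had 256 and 257 reads and ratios of -0.36 and -0.47 in the authors' deposited table. H3K27ac and H3K36me3 thus had peaks in both sexes and no call.

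The other strong H3K4me3 site of this stretch was at parity. At chr12:105576371-105580962 the tags were 1013 in males and 1014 in females, with ratios of -0.03 and -0.02 in the authors' deposited table. It lay under an H3K27ac peak of 2690 tags in males and 2050 in females, with a ratio of -0.11 in each list of that table. None of these sites can be assigned to Serpina3k, Serpina3l-ps or Serpina3m, because no start between Serpina3j and the start of Gm40561 at 105642379 was placed.

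The Serpina3n start lay inside H3K4me3 at chr12:105644234-105649345, with 989 tags in males and 1294 in females. The authors' deposited table gave both lists a log2 ratio of -0.41 (p = 3.96e-11), without a call. H3K27ac there had 1710 tags in males and 1180 in females, and a ratio of 0.00 in the male list of the authors' deposited table. H3K36me3 ran from 105646000 to 105653199 in males, with 387 reads, and to 105653399 in females, with 315.

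To the right of the H3K4me3 and H3K36me3 of Serpina3n, long H3K27me3 and H3K9me3 islands took up much of the rest of the window in both sexes. From the Serpina3n start to the right edge, 255 kb, H3K27me3 covered 68.7% in males and 87.8% in females, in 4 male islands and 6 female ones, the last of which ran past the edge. In the authors' deposited table their ratios ran from -0.17 to 0.12 in the male list and from -0.26 to 0.10 in the female list. H3K9me3 began at 105746400 in males and 105750400 in females and covered 36.9% and 36.1%. RefSeq order puts Gsc, a homeobox gene of the early embryo, beyond Serpina3n and no Serpina gene there. A small H3K4me3 site at chr12:105711088-105711837, with 36 tags in males and 35 in females, lay inside the H3K27me3 of both sexes.

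**Figure D5:**
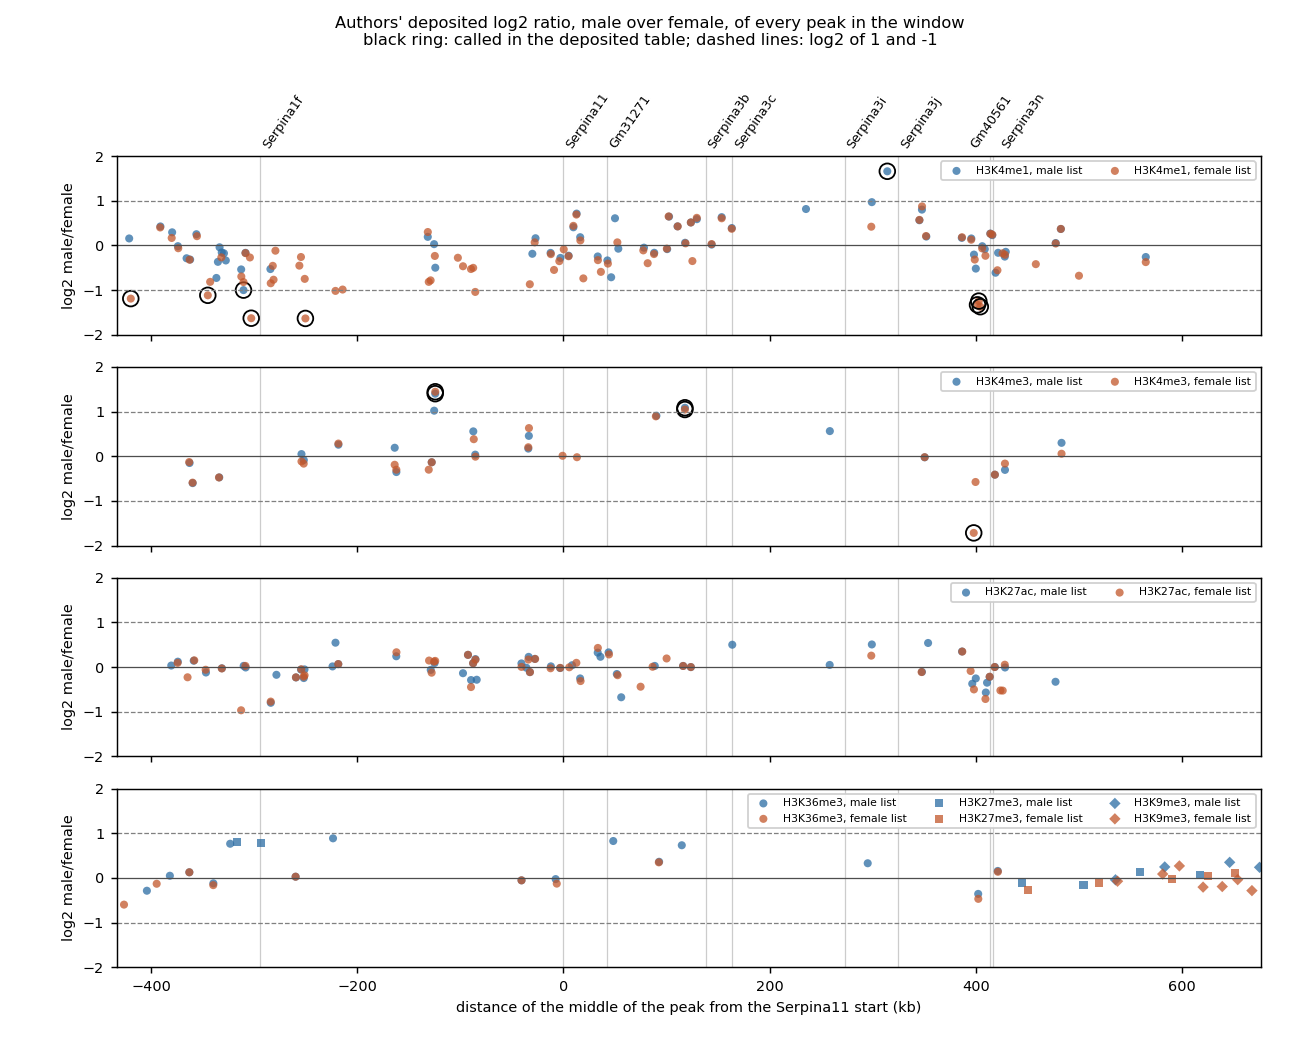
The authors' deposited log2 ratio (male over female) of each peak against the distance of its middle from the Serpina11 start in kb, with male-list peaks in blue and female-list peaks in orange, called peaks ringed, and dashed lines at 1 and -1. H3K27ac has no ringed point, and the lowest H3K4me3 value, -1.72, stands alone left of Serpina3n.

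Counted over the window, 5 peaks were called male and 9 female. These lay at 9 merged H3K4me1 sites and 3 merged H3K4me3 sites, as both H3K4me3 sites called male were called in each list. The share called either way exceeded that of the whole list for H3K4me3 in both lists and for female-list H3K4me1. It was lower for male-list H3K4me1, and no other mark had a call. All these shares rest on few calls. H3K4me3 had 2 male calls among 22 male-list peaks (4.46% of that whole list called male, 4.96% either way), and 2 male and 1 female call among 25 female-list peaks (1.34% and 1.25% of that list, 2.59% either way). H3K4me1 had 1 male and 1 female call among 65 male-list peaks (8.21% and 0.501% of that list, 8.71% either way), and 7 female calls among 83 female-list peaks (3.88% of that list called female, 5.13% either way). H3K27ac had 0 calls among 56 male-list and 50 female-list peaks, where the whole lists had 2.6% and 3.63%. H3K36me3 had 0 among 15 and 10 islands (0.592% and 0.457% of the lists), and H3K9me3 0 among 4 and 7 islands (3.45% and 2.3%). Of the 7 called peaks in the female H3K4me1 list, none had a male partner.

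The female H3K4me1 list had the most peaks without a partner in the other sex. It had 33 of 83 without a male partner (39.8%, exact Clopper-Pearson 95% interval 29.2 to 51.1, against 28.4% of the whole list), and the male list 3 of 65 without a female partner (4.62%, 0.962 to 12.9, against 15.2%). H3K36me3 had 5 of 15 male islands without a partner and 0 of 10 female ones, against 19.2% and 6.99% of the lists. For H3K27ac the male list had 12 of 56 (21.4%, 11.6 to 34.4, against 21.2%) and the female list 3 of 50 (6%, 1.25 to 16.5, against 11.6%). The intervals cover counting error only and treat neighbouring peaks of a list as independent. Of the 33 female-list H3K4me1 peaks without a partner, 18 lay between Serpina1f and Serpina11.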

How the data were processed

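ChIP-seq lists on mm9 were used as deposited. The submitters' processing notes name Bowtie and SICER 1.1. H3K4me1, H3K4me3 and H3K27ac lists have MACS-type columns (caller version not given in the sources used here). Per the labels, SICER windows and gaps were 200 and 800 bp for H3K36me3 and 400 and 2400 bp for H3K27me3 and H3K9me3. Tag and read counts per peak were deposited by the authors for pooled libraries, with H3K27ac tags and scores partly rounded to 3 significant digits. Fold enrichment (a ratio over control), false discovery rate in percent, peak p-value and score are the authors' own values per the file headers, used to describe and rank peaks within a list. The log2 ratio of male over female, its p-value and the call come from the authors' deposited table, with no statement of how the ratio was normalized. Calls followed an absolute log2 of at least 1 with p below 0.001 in 349 of 349 window peaks. Such p-values carry no animal-to-animal variation. IgG reads (10828699 on 19 autosomes, 35 bases) were deposited as alignments, and 37.2% repeated a position and strand. Of 4 IgG libraries in the labels, 1 was used, and tiles and totals cover autosomes only. Reads inside peaks ranged from 1526754 (male H3K9me3) to 20459697 (female H3K4me1) per list.

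Overlaps, coverage and exact intervals were computed in Python 3.11.15 with SciPy 1.17.1 and drawn with matplotlib 3.10.9, after the functions were tested on simulated data. A start was placed where an IgG read matched 1 RefSeq promoter (250 bases before to 50 after the start) alone, whole and without mismatch. An added rule, chosen after seeing the data, took reads with 1 mismatch or with at least 20 bases at a promoter's edge, where the distance to other placed starts equalled that in RefSeq. RefSeq gene order (GRCm38.p6) gave names and neighbours only.

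The members, lists and tests were chosen with earlier results of these data known. Named peaks were H3K4me3 peaks, called peaks, islands (the 5 with most reads per kb in a list of more than 10) and the 5 best-scoring H3K27ac and H3K4me1 peaks per list. Other peaks were named after their values were seen. Alternatives were peaks wholly inside the window, the better-scoring 50% of each list, looser, stricter and centred calls, reciprocal overlap of 50%, lists of equal length, IgG duplicates counted once, bins of 100 kb and at least 2 reads per start.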

Additional observations from a re-analysis of the deposited data

How the results depend on the processing

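With the better-scoring 50% of each list, the window held 85 male-list and 89 female-list peaks in place of 168 and 181, H3K27ac covered 15.2% in males and 13.1% in females, and H3K27me3 18.4% in males and an unmoved 20.4% in females. With an absolute log2 of at least 1.5, calls came to 1 male and 3 female in place of 5 and 9, and with a ratio of at least 1.5-fold to 16 and 21. A reciprocal overlap of 50% raised peaks without a partner to 59 in male and 71 in female lists, in place of 24 and 42. It raised them to 24 in the male H3K4me1 list in place of 3, and to 42 in the female one in place of 33. In lists of equal length, the male lists had 26 such peaks and the female lists 32. The H3K4me1 lists then had 5 in males and 24 in females. IgG density in the Serpina1 region was 0.181 and 0.250 in 100 kb bins. Centring the deposited ratios on shared peaks ended none of the 14 calls, whose values with 2 H3K27me3 islands kept direction in 16 of 16 cases; the medians subtracted were within 0.1 of 0 except for H3K9me3, at 0.11 (male list) and -0.13 (female list). Requiring 2 reads placed 6 starts in place of 9, and the added rule 12. Peaks wholly inside the window and IgG duplicates counted once kept their values within 1.5 times.

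Pooled lists allow no replicate to be left out. No paired analysis was possible because the libraries of each mark and sex share 1 pooled list. The IgG library is 1 male library, so control density in females was not measured here, and fold enrichments over 0 to 8 control reads have little precision.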
